A study of Mus musculus with 25 samples.

Results

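The comparison described here is between microglia taken from the injured mouse spinal cord on day 3 (D3) and on day 10 (D10). Its members are the cells that the deposited annotation places in cell type 1, summed within each library sorted as resident or mixed, which gave 8 sums: 5 at D3 and 3 at D10. These sums hold 4875 of the 30958 cells of the series, 2165 at D3 and 2710 at D10, out of 13289 microglia in all 25 libraries. The series profiled myeloid cells by droplet-based 3′ single-cell RNA-seq after spinal cord injury, at day 1, 2, 3, 10 and 21 (D1 to D21) and after laminectomy alone, which exposes the cord without harming it (Ctrl). Per the labels, each library pools tissue from 1 to 3 mice around a 5 mm lesion segment, so the library is the replicate and p-values measure the spread between libraries.

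Mixed libraries came from Cx3cr1CreERT2 mice and hold all cells sorted as YFP+. Resident libraries came from Cx3cr1CreERT2:R26tdTomato mice and hold cells sorted as RFP+/YFP+. The D3 group was D3_resident 1 (female), D3_resident 2 (male) and D3_mixed 1, 2 and 3 (male). The D10 group was D10_resident 1 (female) and D10_mixed 1 and 2 (male). Control values are from Ctrl_mixed 1 (female) and Ctrl_resident 1 (male), in that order, with laminectomy and no injury. The 8 injured libraries share the injury and the inducible Cre recombinase at the Cx3cr1 locus, a gene that microglia and many blood-derived myeloid cells both use. Each sort came from its own strain, so sort and strain cannot be told apart. The ages of the mice, the grade of the injury and the timing of Cre induction are not given in the sources used here.

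Microglia are the resident macrophages of the central nervous system. After injury they lose part of their resting programme, divide near the lesion, take up myelin and cell debris, and switch on genes for lipid transport, lysosomal digestion and signalling that are also used around amyloid plaques and in demyelination, a set known as the disease-associated programme. Cells that divide copy their DNA under one group of genes (replication enzymes and helicase subunits) and then separate their chromosomes under another (cyclins, mitotic kinases and spindle proteins), so both groups can be followed in RNA.

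All 11 microglia markers were higher in these cells than in the other cells of the same 8 libraries, by 7.02 (Cx3cr1) to 126 times (Slc2a5) in CPM pooled over these libraries. Cells per sum ran from 108 to 967 at D3 and from 641 to 1151 at D10, and UMIs, the counted transcript molecules, from 485160 to 2076989 at D3 and from 2254738 to 4895830 at D10. The median UMI count per cell was 2813 ± 224 (SD, n = 3) at D10 and 2134 ± 745 (SD, n = 5) at D3 (exact permutation test, 2-sided p = 0.179; 3 against 5 libraries can go no lower than 0.0179). The median percent of mitochondrial counts was 0.518% ± 0.405 at D10 and 1.13% ± 0.580 at D3 (exact permutation p = 0.179). D3_mixed 1 and 2 stand apart: they share a sequencing pool with no other library, and only 24.9% and 24.5% of their cell barcodes begin with 6 letters seen in the 23 other libraries, against 100% in the others. D3_mixed 3 also differs, since microglia were 14.4% of its cells and 67.9% to 99.6% of those of the other 7 libraries. Among the 8 libraries 9 barcodes occurred in more than 1 library. No pool held microglial sums of both days.

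Values are CPM, the counts of a gene per 1e+06 counts, on library totals scaled by TMM, and differences are log2 fold changes of D10 over D3 with their standard error (SE), from edgeR's quasi-likelihood test across all genes with Benjamini-Hochberg adjustment. Of 10801 genes tested, 743 had an adjusted p under 0.05 (6.88%), 320 higher at D10 (2.96%) and 423 lower (3.92%), around a median of 0.05 for all genes. The D3 and D10 ranges did not overlap for 18.9% of all genes tested and for 678 of the 743. Lists of genes are read below against these shares. In sums over cells, fewer cells with a transcript and less of it per cell cannot be told apart. Values of a gene are given in the order D3_resident 1, D3_resident 2, D3_mixed 1, D3_mixed 2, D3_mixed 3, then D10_resident 1, D10_mixed 1, D10_mixed 2.

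The number of calls depended on which libraries entered. Omitting a D10 library left 64 (D10_mixed 2), 158 (D10_mixed 1) or 243 (D10_resident 1) calls. Omitting a D3 library left 402 (D3_resident 2), 420 (D3_mixed 1) or 466 (D3_mixed 2), and raised the number to 1578 for D3_mixed 3; omitting D1_mixed 2, which enters through the spread, left 474. With the sequencing pool as a further term no gene passed (526 had an unadjusted p under 0.05), and 204 of the 743 changed sign. In that fit the D3 arm rests on D3_mixed 3 alone, because the other D3 libraries lie in pools that hold D3 sums and nothing else. Time and pool therefore cannot be told apart here. Below, a gene is said to have passed under a number of the 32 alternative settings, of which the pool term is 1. Of the 100 called genes whose fold change is printed, 18 passed under every setting run but the pool term, and 31 changed sign with it. The 14 that passed under fewer than 16 settings were Csf1 and H2-Ob (7 each), Sall1 and H2-Oa (10), Cxcl16 (11), Uhrf1 (12), Cacna1d, Smad7, Top2a and Atp6v0d2 (13), Tyrobp and Birc3 (14), and Il10ra and Eno1 (15); Uhrf1 and Birc3 could be tested under 31 settings and Atp6v0d2 under 29.

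Some lipoprotein genes rose, and so did part of the disease-associated programme. Apoc4 and Apoc1, small lipoproteins of the Apoe gene cluster, and Apoe itself, the main lipid carrier made by glia, were all higher at D10, and so was Lpl, lipoprotein lipase. Apoc4 measured 18.4, 16.03, 28.2, 22.9 and 33.7 CPM at D3 and 258, 213 and 172 CPM at D10 (log2 fold change 3.16, SE 0.31, adjusted p 2.8e-05). Apoc1 measured 91.9, 76.95, 109, 93.3 and 102 CPM at D3 and 521, 861 and 828 CPM at D10 (log2 fold change 2.99, SE 0.30, adjusted p 2.8e-05). In both genes every D10 library was above every D3 library, and control microglia held 0.129 and 0.37 CPM of Apoc4 and 1.81 and 1.48 CPM of Apoc1.

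Apoe was the most abundant of the 3, with 17247, 10987, 25414, 18083 and 12739 CPM at D3 and 62369.8, 53446 and 64967 CPM at D10 (log2 fold change 1.88, SE 0.33, adjusted p 0.0035), against 1141 and 1114 CPM in the controls. Lpl followed with 462, 248, 317, 369.7 and 384 CPM at D3 and 955, 979 and 1117 CPM at D10 (log2 fold change 1.52, SE 0.21, adjusted p 7.9e-04). The 2 groups did not overlap in any of these genes, and each passed under 31 of 32 settings, the pool term being the exception. On GRCm38 the apolipoprotein genes lie within one stretch of chromosome 7, all on the minus strand: Apoc4 at 19678083-19681479, Apoc1 at 19689481-19692660 and Apoe at 19696109-19699188. Apoc4 shares its span with the annotated gene Gm44805 on the same strand, so its reads could belong to either. Apoc2, of the same cluster, is on the list and did not enter the test.

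Over the list of apolipoproteins and lipid handling, 7 of 27 genes tested rose and 3 fell, with a median of 0.48, so 17 did not pass, Fabp5, Abca1, Abcg1 and Npc1 among them. The others that rose were Abca9, a lipid transporter (1.68), Mylip, which marks lipoprotein receptors for degradation (1.38), and Npc2, which carries cholesterol out of lysosomes (0.71). The 3 that fell take up or store lipid: the scavenger receptors Cd36 and Msr1, and the droplet coat protein Plin2 (-1.08, adjusted p 0.041). Cd36 measured 34.7, 48.1, 49.95, 68.7 and 35.6 CPM at D3 and 9.75, 7.93 and 9.45 CPM at D10 (log2 fold change -2.35, SE 0.48, adjusted p 0.01), and Msr1 118, 226, 178, 139 and 151 CPM at D3 and 52.01, 37.5 and 41.3 CPM at D10 (log2 fold change -1.93, SE 0.30, adjusted p 0.0014). Every D10 library was thus below every D3 library for both scavenger receptors, while the apolipoproteins above moved the other way. Of 20 cholesterol synthesis genes 1 rose, Sc5d, a late sterol enzyme (1.28, adjusted p 0.02), and none fell; the median was 0.21.

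**Figure D1:**
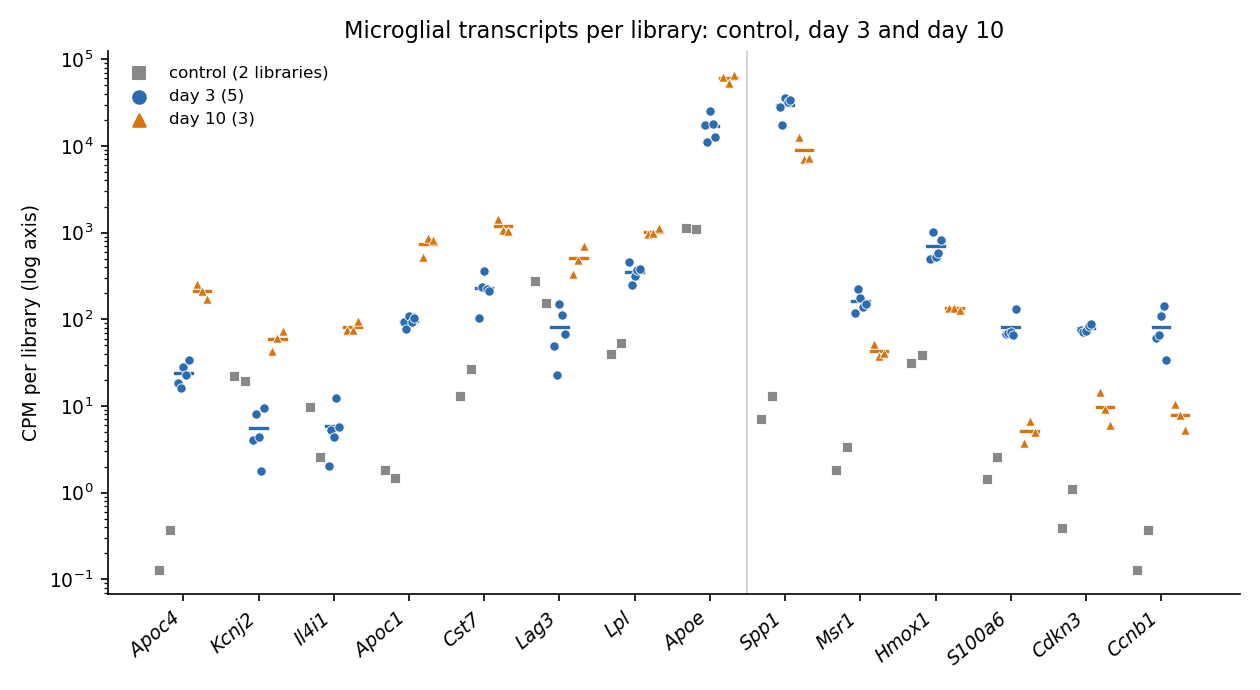
CPM (log axis) of 14 transcripts in microglia of each control, D3 and D10 library; bars mark the means of D3 and D10. The 8 genes left of the line sit higher in the 3 D10 libraries than in all 5 D3 libraries (Apoc1 521 to 861 against 77.0 to 109), and the 6 on the right sit lower (Cdkn3 5.97 to 14.4 against 72.1 to 89.0).

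The disease-associated list as a whole had 9 of 28 genes higher and 1 lower, with a median of 0.68 (-0.10 with the pool term, with none called). Itgax, the integrin CD11c, measured 2.04, 4.28, 2.17, 0 and 4.45 CPM at D3 and 28.3, 41.1 and 54.9 CPM at D10 (log2 fold change 3.75, SE 0.47, adjusted p 3.4e-04). Cst7, an inhibitor of lysosomal cathepsins, measured 104, 233, 365, 225 and 210.3 CPM at D3 and 1446, 1073 and 1041 CPM at D10 (log2 fold change 2.56, SE 0.32, adjusted p 3.4e-04). The D10 libraries were above all D3 libraries in both genes, and control microglia had 5.43 and 2.59 CPM of Itgax and 12.9 and 26.6 CPM of Cst7. The chemokine Ccl6 (2.02), the pyrophosphate transporter Ank (1.69), the fungal-glucan receptor Clec7a (1.62), the growth factor Csf1 (0.85, passing under 7 of 32 settings) and the Trem2 adaptor Tyrobp (0.70) also rose.

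Spp1, osteopontin, was the member that fell, with 28170.1, 17534, 35724, 32294 and 33981 CPM at D3 and 12831, 7018 and 7212 CPM at D10 (log2 fold change -1.78, SE 0.35, adjusted p 0.0081); the controls had 7.12 and 12.9 CPM. The D10 libraries were below all D3 libraries and still far above the controls. Trem2, the lipid receptor placed upstream of this programme, had 2196, 1583, 1481, 1458 and 2292 CPM at D3 and 2970.5, 3003 and 3151 CPM at D10 (log2 fold change 0.75, SE 0.22, adjusted p 0.051): its ranges were separate and its test missed the threshold. It passed under 7 of 32 settings. Igf1 behaved likewise (log2 fold change 1.01, SE 0.34, adjusted p 0.079), with 5 of 32. Gpnmb, Fabp5 and Tmem119, at -0.02, 0.29 and -0.30, had ranges that overlapped and adjusted p of 0.99, 0.68 and 0.52. Gpnmb and Fabp5 were both highest in D3_mixed 3 (295 and 1169.95 CPM).

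Among 20 genes of the homeostatic programme 2 rose and none fell, with a median of 0.19. Cst3, cystatin C, had 8009, 5799.8, 8308, 7438 and 13760.5 CPM at D3 and 21153, 21403 and 24637 CPM at D10 (log2 fold change 1.39, SE 0.29, adjusted p 0.01), and it was higher still in the controls, 45759.9 and 35487 CPM. Sall1, a transcription factor that marks microglia, had 40.8, 32.1, 23.9, 14.1 and 30.5 CPM at D3 and 40.9, 56.6 and 75.6 CPM at D10 (log2 fold change 1.02, SE 0.30, adjusted p 0.049) and passed under 10 of 32 settings. The purinergic receptor P2ry12 had 169.5, 214, 678, 745 and 332 CPM at D3 and 284, 491 and 537 CPM at D10 (log2 fold change 0.12, SE 0.42, adjusted p 0.89), so its D3 libraries spread more widely than the groups differed. C1qa, a complement component that microglia make at high level, was also not called (log2 fold change 0.44, SE 0.25, adjusted p 0.27).

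Cx3cr1, the fractalkine receptor whose locus carries the Cre, differed far more between sorts than between days. Its values were 662, 377, 4.34, 17.6 and 79.4 CPM at D3 and 823, 89.1 and 74.6 CPM at D10, so all 3 resident libraries were above all 5 mixed ones at either day (log2 fold change 0.15, SE 1.15, adjusted p 0.96). The annotated span of Cx3cr1 overlaps Csrnp1, Gorasp1 and Xirp1 on the same strand. The summed level of the 20 genes was 22788 to 29113 CPM at D3, 41707 to 45151 CPM at D10 and 62973 to 76499 CPM in the 2 controls. Cst3 made up most of the difference between the days: without it the sum was 15352 to 18694 CPM at D3 and 20304 to 21897 CPM at D10, and 18 of the 20 genes were not called.

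Genes of cell division had the lowest medians of all the lists examined. In the mitosis list 35 of 40 genes tested were lower at D10 and none higher, with a median of -2.49, and the ranges were separate for 34. In the list of DNA replication and entry into S phase 11 of 32 fell and none rose, with a median of -1.87 and separate ranges for 25. All 40 and all 32 genes had a negative fold change. For comparison, 3.92% of all genes tested fell. With the pool term, in which D3 rests on D3_mixed 3, no member passed and the medians were -0.66 and 1.49.

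Ccnb1, cyclin B1, which drives entry into mitosis, measured 61.3, 65.2, 109, 141 and 33.7 CPM at D3 and 10.7, 7.93 and 5.22 CPM at D10 (log2 fold change -3.43, SE 0.59, adjusted p 0.0031). Cdkn3, a phosphatase of cyclin-dependent kinases, measured 75.6, 72.1, 73.8, 82.7 and 88.97 CPM at D3 and 14.4, 9.21 and 5.97 CPM at D10 (log2 fold change -3.11, SE 0.30, adjusted p 2.8e-05). Cdca8, a subunit of the complex that corrects chromosome attachment, had 67.4, 142, 84.7, 106 and 142 CPM at D3 and 15.8, 19.1 and 13.2 CPM at D10 (log2 fold change -2.77, SE 0.45, adjusted p 0.0022). In each of these genes every D10 library was below every D3 library. Cyclin A2 (Ccna2, -3.13), the survivin gene Birc5 (-2.71), the kinesin Kif23 (-3.25), the kinetochore subunit Spc24 (-2.89) and the mitotic kinase Pbk (-2.84) fell as well.

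Mki67, the usual proliferation marker, was not called. Its values were 91.9, 95.1, 15.2, 17.6 and 170.3 CPM at D3 and 12.5, 31.9 and 8.70 CPM at D10 (log2 fold change -2.15, SE 0.82, adjusted p 0.11), and its 2 lowest D3 values came from D3_mixed 1 and 2, the libraries that share a pool of their own. Top2a, the topoisomerase that untangles chromosomes, passed narrowly with 141, 417, 156, 149.6 and 157 CPM at D3 and 22.3, 48.00 and 23.9 CPM at D10 (log2 fold change -2.63, SE 0.76, adjusted p 0.047) and did so under 13 of 32 settings. Its D3_resident 2 value was more than 2 times that of any other D3 library.

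Of the replication genes, Rrm2, the regulated subunit of ribonucleotide reductase, measured 59.2, 119, 241, 197 and 41.3 CPM at D3 and 8.36, 17.4 and 6.96 CPM at D10 (log2 fold change -3.45, SE 0.76, adjusted p 0.015). Tk1, thymidine kinase (-2.69), Uhrf1, which maintains DNA methylation (-2.74), and Ccne1, cyclin E1 (-2.38), fell, as did Pclaf, a partner of the replication clamp (-3.13, outside the list). These 4 turned positive with the pool term. D3_mixed 3 had the lowest D3 sum of the replication list, 885 CPM against 1532 to 2023 in the other 4.

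Over the time points the mitosis sum was highest at D2 and D3. Summed over the mitosis list, control microglia had 81.1 and 184 CPM, the 3 D1 libraries 182 to 577, the 3 D2 libraries 3004 to 4692, the 5 D3 libraries 2367 to 3656, the 3 D10 libraries 372 to 689 and the single D21 library 320 CPM. The replication sum was 266 and 776 CPM in the controls and 709 to 2263 CPM at D1, so the lowest D1 library lay below the higher control, then it was 1820 to 2699 at D2, 885 to 2023 at D3 and 436 to 630 at D10. These sums are a description and were not tested.

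**Figure D2:**
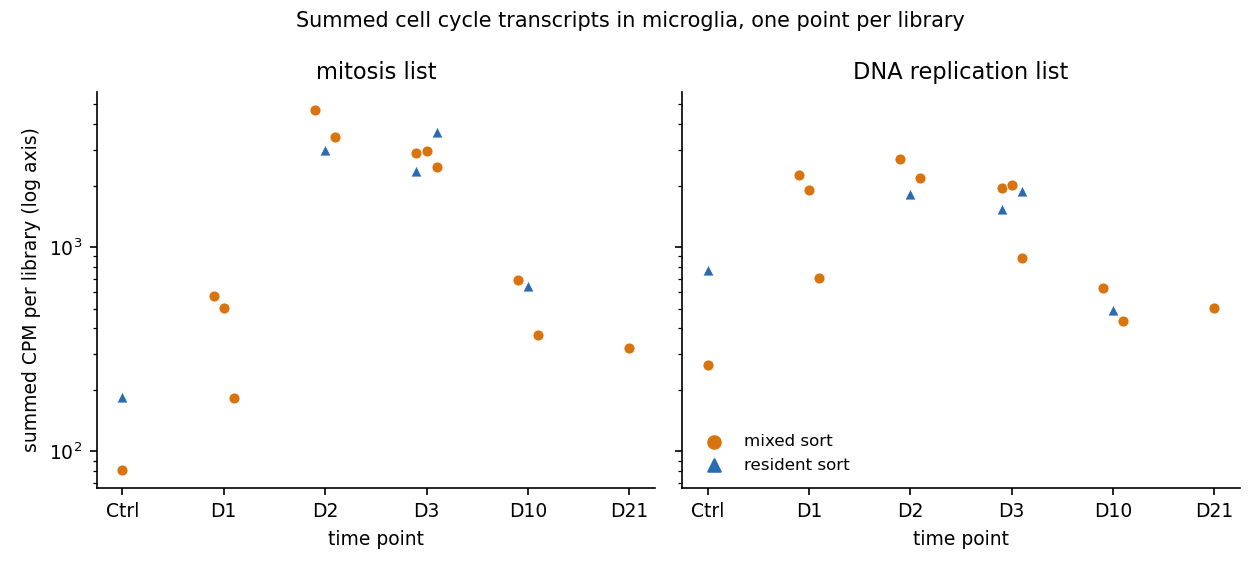
Summed CPM (log axis) of the mitosis list (left) and the DNA replication list (right) in microglia of each of the 17 libraries with at least 20 such cells, by time point; circles are mixed and triangles resident libraries. The mitosis sums are highest at D2 and D3 (2367 to 4692 CPM) and lower at D10 (372 to 689), in both sorts.

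The authors' clusters 6, 7 and 10, whose leading genes include cell cycle genes, held 19.0% to 33.5% of the microglia of a D3 library and 3.70% to 5.65% of those of a D10 library. Without these clusters 39 of the 40 mitosis genes could be tested (Foxm1 was lost to the filter). Over these 39 the median moved from -2.49 to -2.27 and the number that passed dropped from 34 to 10, and over the 32 replication genes the median moved from -1.87 to -1.86 and the number from 11 to 2. Cdkn3, Cdca8, Birc5 and Rrm2 were among those that still passed, at -3.78, -3.06, -3.72 and -3.95. Single genes moved both ways: 23 of the 39 mitosis genes came nearer to 0 and 16 moved further from it. The centromere motor Cenpe went from -1.94 to -0.31, Ckap2l from -1.84 to -0.59, the kinetochore scaffold Knl1 from -2.27 to -0.88 and Cks2 from -1.73 to -0.62, and these 4 no longer passed. Counts of all genes called fell from 743 to 190 in the same fit.

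**Figure D3:**
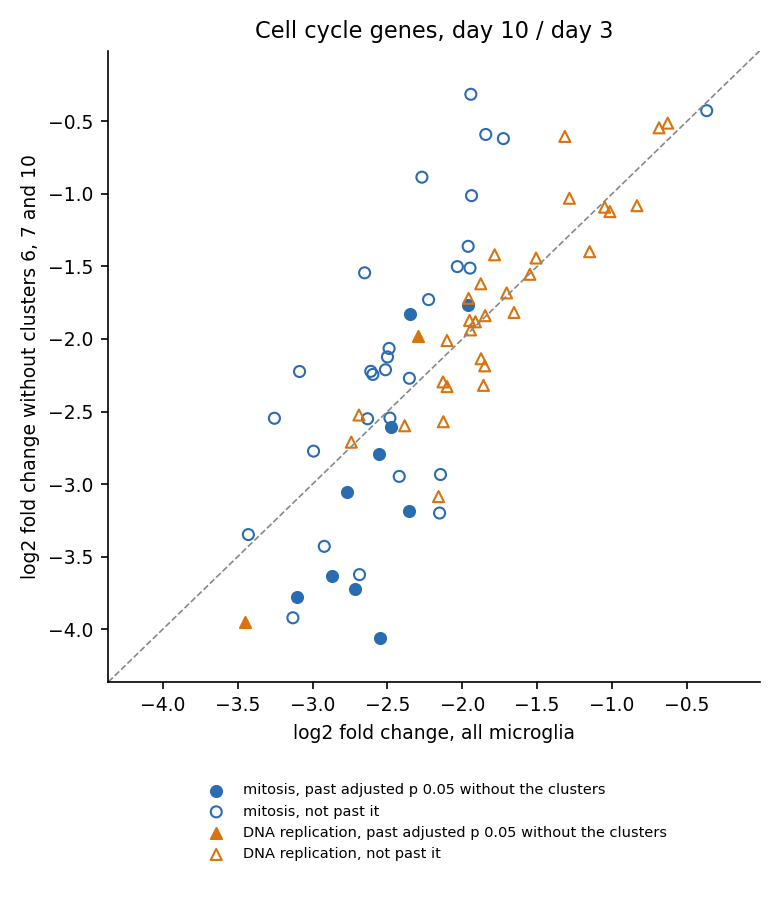
Log2 fold change (D10 over D3) of the 39 mitosis genes tested in both fits (circles) and 32 replication genes (triangles) with all microglia (x axis) and without the authors' clusters 6, 7 and 10 (y axis); filled symbols passed an adjusted p of 0.05 without those clusters. All genes lie below 0 on both axes, around the dashed line of equality, and 10 mitosis and 2 replication genes are filled.

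Because these genes moved together, their promoters are shown for the features known to time such genes in the cycle. Mitotic genes often carry a CHR element, TTTGAA, bound by the DREAM complex, with CCAAT boxes upstream, and replication genes often carry E2F sites. RefSeq promoters (GRCm38.p6, 250 bases before to 50 after the start) were found for 35 of the 40 mitosis genes. TTTGAA, on either strand, occurred in 71.4% of them, in 14.6% of the 8658 genes tested that have a promoter and in 20.2% of all 27025 genes. CCAAT, also on either strand, occurred in 77.1%, 43.6% and 41.1%. For 27 replication genes the E2F forms TTTGGCGC, TTTCCCGC, TTTCGCGC or TTTGGCGG occurred in 48.1%, against 5.38% of the genes tested, and TTTGAA in 11.1%. Among the 30 mitosis genes that fell and have a promoter, 21 held TTTGAA. Among the 10 replication genes that fell and have a promoter, 3 held an E2F form. A match is a description of letters and not a site.

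The promoters of 4 genes with TTTGAA close to the start are printed as the 100 bases before it, on the strand of the gene, with TTTGAA and CCAAT on either strand in capitals. They belong to a spindle kinesin, the topoisomerase above, and an activator and a ubiquitin enzyme of the complex that ends mitosis, chosen for the position of the motif.
Kif11, chr19:37376282-37376381, plus strand: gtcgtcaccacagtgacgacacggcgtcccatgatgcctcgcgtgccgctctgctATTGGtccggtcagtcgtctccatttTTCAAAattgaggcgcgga
Top2a, chr11:99024190-99024289, minus strand: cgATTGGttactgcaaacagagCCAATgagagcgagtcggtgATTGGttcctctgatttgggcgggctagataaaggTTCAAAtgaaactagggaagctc
Cdc20, chr4:118437344-118437443, minus strand: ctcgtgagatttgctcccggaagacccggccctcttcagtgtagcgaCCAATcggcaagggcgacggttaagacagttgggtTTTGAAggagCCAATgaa
Ube2c, chr2:164769829-164769928, plus strand: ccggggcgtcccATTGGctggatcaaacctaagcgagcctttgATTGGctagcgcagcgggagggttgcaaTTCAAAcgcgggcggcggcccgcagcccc
The motif begins 19 bases before the start in Kif11, 23 in Top2a, 18 in Cdc20 and 29 in Ube2c. These genes had fold changes of -2.92, -2.63, -2.61 and -2.48 (adjusted p 0.0061, 0.047, 0.014 and 0.0071).

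Several genes that fell are better known from infiltrating macrophages. S100a6 and S100a4, small calcium-binding proteins, had 67.4, 69.5, 71.7, 65.1 and 132 CPM at D3 and 3.71, 6.64 and 4.97 CPM at D10 (log2 fold change -3.93, SE 0.35, adjusted p 2.5e-05) and 182, 119, 39.1, 36.97 and 43.8 CPM at D3 and 6.97, 5.14 and 7.71 CPM at D10 (log2 fold change -3.64, SE 0.50, adjusted p 7.9e-04). Vim, the filament protein vimentin, was lower too (-1.72, adjusted p 0.027). Pooled over the 8 libraries, the other cells held 1149 CPM of S100a6 and 230.0 CPM of S100a4, against 30.0 and 29.3 CPM in the microglia. The D3 microglial means were 81.2 and 84.1 CPM. D3_mixed 1 and 2, of whose cells 99.6% and 99.4% were microglia, had 71.7 and 65.1 CPM of S100a6, close to the 67.4 and 69.5 CPM of the resident libraries. S100a4 differed there, with 39.1 and 36.97 CPM in those mixed libraries against 182 and 119 CPM in the resident ones. S100a4 overlaps the annotated gene Gm42674 on the same strand.

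Ccl7, a chemokine that recruits monocytes, had 12.3, 40.6, 4.34, 35.2 and 54.7 CPM at D3 and 3.71, 2.79 and 1.49 CPM at D10 (log2 fold change -3.52, SE 0.81, adjusted p 0.019), and Cbr2, a reductase of border macrophages, had 2.04, 16.03, 2.17, 5.28 and 11.4 CPM at D3 and 1.86, 0.429 and 0 CPM at D10 (log2 fold change -3.93, SE 0.96, adjusted p 0.024); Ccl7 passed under 26 of 32 settings and Cbr2 under 24 of 31. With counts pooled over both days, the other cells of these libraries held more of several genes that fell. The ratios to the microglia were 20.7 for Ccl7, 5.87 for Vim, 4.31 for Hmox1, 3.72 for Spp1 and 3.60 for Cd36, but 1.09 for Msr1. Most of these other cells came from D3_mixed 3, and most microglial UMIs from D10. Against the D3 microglial means, Ccl7, Vim, Hmox1, Spp1 and Cd36 stayed higher in the other cells (Hmox1 1418 against 693 CPM). Msr1 was lower in the other cells (87.3 against 162 CPM). Free RNA was not removed, and its part in these falls was not tested.

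Genes of iron and oxidant handling fell in part. Hmox1, which breaks down heme, had 502, 1029.8, 526, 583 and 827 CPM at D3 and 137, 137 and 127 CPM at D10 (log2 fold change -2.39, SE 0.42, adjusted p 0.0036), and Ftl1, the light chain of the iron store ferritin, had 8458, 15827, 18270.1, 18462 and 15084 CPM at D3 and 7282, 7633 and 7552 CPM at D10 (log2 fold change -0.99, SE 0.24, adjusted p 0.022). Against these, the metal transporters Slc11a1 (104, 71.6, 76.02, 66.9 and 69.3 CPM at D3 and 228, 231 and 248 CPM at D10; log2 fold change 1.61, SE 0.20, adjusted p 3.1e-04) and Slc11a2 (1.51) and the oxidant-response factor Nfe2l2 (0.94) rose. The list of 22 thus held 3 that rose and 2 that fell, with a median of -0.33, and in Hmox1 and Slc11a1 every D10 library lay beyond every D3 library.

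Of 13 genes for MHC class II presentation 4 rose and none fell, with a median of 0.56. Cd74, the invariant chain, measured 49.02, 71.1, 41.3, 42.3 and 64.8 CPM at D3 and 133, 115 and 244 CPM at D10 (log2 fold change 1.63, SE 0.30, adjusted p 0.0061). Ctss, the protease that trims it, measured 4786, 5583, 5421, 5401 and 4752 CPM at D3 and 11317, 10603 and 12319.8 CPM at D10 (log2 fold change 1.16, SE 0.23, adjusted p 0.0091). The peptide-loading regulators H2-Oa (1.54) and H2-Ob (1.20) passed from low levels, under 10 and 7 of 32 settings. The structural chains H2-Aa, H2-Ab1 and H2-Eb1 were not called. No gene of 14 for class I was called by edgeR or DESeq2 (1 had an unadjusted p under 0.05); B2m, its shared light chain, was at 0.25 and H2-D1 at 1.09 (adjusted p 0.74 and 0.11).

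Among 13 complement genes 1 rose and 1 fell. C3, the central component, had 4.08, 1.07, 0, 0 and 3.18 CPM at D3 and 16.3, 14.6 and 24.6 CPM at D10 (log2 fold change 3.32, SE 0.54, adjusted p 0.0023), and Cfp, properdin, fell (-2.23, adjusted p 0.021). Of 17 chemokines 3 rose and 1 fell: Ccl6, with 89.9, 135, 193, 243 and 195 CPM at D3 and 573, 797 and 683 CPM at D10 (log2 fold change 2.02, SE 0.30, adjusted p 0.0013), Cxcl14 (1.16) and Cxcl16 (0.75, passing under 11 of 32 settings) rose, and Ccl7 fell. Ccl2, the main monocyte attractant, was not called (log2 fold change -1.67, SE 0.62, adjusted p 0.11). Of 16 cytokine genes 2 rose: Il1b, with 6.13, 2.67, 0, 5.28 and 7.63 CPM at D3 and 22.3, 9.64 and 32.3 CPM at D10 (log2 fold change 2.24, SE 0.50, adjusted p 0.017), and the receptor Il10ra (1.44). Tnf was at 1.04 with an adjusted p of 0.23.

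None of 30 interferon-stimulated genes was called by edgeR (DESeq2 called 2 lower, and 6 had an unadjusted p under 0.05 in edgeR), although 28 of them had a negative fold change and the median was -0.91. Summed over the list, the D3 libraries had 7510 and 6901 CPM in the 2 resident sorts and 2513, 1093 and 2158 CPM in the 3 mixed ones, and the D10 libraries 2364, 1600.2 and 1449 CPM. The 2 D3 resident libraries were thus more than 2 times as high as each of the other 6, and with mixed libraries alone the median of the list was 0.08. Ifit3 showed it in 1 gene, with 284, 169, 26.1, 1.76 and 31.1 CPM at D3 and 55.3, 53.1 and 31.6 CPM at D10 (log2 fold change -1.13, SE 0.91, adjusted p 0.44).

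Immediate early genes, which signalling and tissue dissociation both induce, had 8 of 23 genes tested higher and 2 lower, with a median of 0.97. Egr1 had 8.17, 2.67, 10.9, 5.28 and 7.63 CPM at D3 and 44.1, 32.1 and 50.2 CPM at D10 (log2 fold change 2.80, SE 0.46, adjusted p 0.0023), and Zfp36, which speeds the decay of cytokine messages, had 28.6, 32.1, 23.9, 17.6 and 20.97 CPM at D3 and 121, 88.3 and 74.1 CPM at D10 (log2 fold change 1.90, SE 0.27, adjusted p 8.6e-04). Egr2 (2.44), Btg2 (1.85), Jun (1.49) and Junb (0.97) rose. Klf2 (-1.55) and the chaperone Hsp90aa1 (-0.81) fell, and Fos was at 1.10 with an adjusted p of 0.3. The controls had 30.1 and 29.2 CPM of Egr1 and 115 and 137 CPM of Zfp36.

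TGF-beta, which keeps microglia in their resting state, was represented by 14 genes, of which 3 rose and 1 fell. The receptors Tgfbr1 (1.49) and Tgfbr2 (1.23) and the inhibitory Smad7 (1.73) were higher, and Tgfbi, a secreted target, was lower, with 172, 180.1, 84.7, 95.1 and 100.4 CPM at D3 and 34.4, 36.9 and 33.3 CPM at D10 (log2 fold change -1.90, SE 0.34, adjusted p 0.0041). Of 28 lineage and state transcription factors 5 rose, among them Runx1 (1.37) and Batf3 (1.44), and 1 fell. Of 16 NF-kB genes Relb (1.10) and Birc3 (1.27) rose.

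Inhibitory receptors and ligands had 4 of 16 higher and none lower. Lag3, an inhibitory receptor best known on T cells, had 49.02, 22.98, 152, 113 and 68.00 CPM at D3 and 329.7, 481 and 709.97 CPM at D10 (log2 fold change 2.76, SE 0.43, adjusted p 0.0017). Pooled over both days, the other cells of these libraries held 4.70 CPM of it, against 367 CPM in the microglia, whose D3 mean was 80.9 CPM. Cd274, the ligand PD-L1 (1.58), Cd22 (1.33) and Vsir (0.76) also rose, each from separate ranges. Outside every list, Il4i1 and Kcnj2 led the rise. Il4i1, a secreted amino acid oxidase, had 2.04, 5.34, 4.34, 12.3 and 5.72 CPM at D3 and 75.7, 75.9 and 94.7 CPM at D10 (log2 fold change 3.79, SE 0.47, adjusted p 3.2e-04), although it overlaps Nup62 on the same strand, and Kcnj2, an inward potassium channel, had 4.08, 8.02, 4.34, 1.76 and 9.53 CPM at D3 and 42.7, 60.4 and 73.6 CPM at D10 (log2 fold change 3.23, SE 0.32, adjusted p 2.8e-05). The calcium channel Cacna1d (1.92), the sulfotransferase Chst2 (1.90) and Pianp (1.90) completed the 12 genes with the largest rise at 50 CPM or more.

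Part of the energy genes fell. Of 38 genes of the respiratory chain and ATP synthase 10 fell and none rose, with a median of -0.56; 36 of 38 had a negative fold change. Atp5b, the catalytic ATP synthase subunit, had 406, 395, 797, 764 and 278 CPM at D3 and 226, 214 and 191 CPM at D10 (log2 fold change -1.32, SE 0.32, adjusted p 0.021), and Ndufs6, of complex I, had 169.5, 199, 213, 211 and 175 CPM at D3 and 107, 88.9 and 79.1 CPM at D10 (log2 fold change -1.11, SE 0.21, adjusted p 0.0056). Uqcrc1 of complex III (-1.27) and Sdhc of complex II (-1.13) fell as well, the latter with ranges that overlap. The summed level was 11942 to 15864 CPM at D3, 9255 to 10758 CPM at D10 and 4115 to 4510.2 CPM in the controls. Atp5b was highest in D3_mixed 1 and 2, the shallowest cells. Without those 2 libraries 5 of the list fell, with a median of -0.47.

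Of 25 glycolysis and hypoxia genes 5 fell and 1 rose. Pkm, pyruvate kinase, had 770.02, 1321, 1668, 1403 and 1225 CPM at D3 and 426, 675 and 501 CPM at D10 (log2 fold change -1.20, SE 0.25, adjusted p 0.012), and Eno1 (-1.07) and Pfkp (-1.98) fell too. Slc2a1, the glucose transporter GLUT1, rose (1.22, adjusted p 0.01). Ribosomal protein genes gave 1 call in 38, Rps19 (-0.87), around a median of 0.06, close to that of all genes.

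Of 44 lysosomal genes 5 rose and 1 fell, with a median of 0.17. Man2b1, which trims sugars (1.12), and Atp6v0d2, a proton pump subunit (2.45), rose, and Gla, a glycolipid hydrolase, fell (-0.96). The abundant cathepsins Ctsd and Ctsb were not called. Of 25 uptake receptors 2 rose, among them Cd14 (1.10), and 2 fell, Cd36 and Msr1. Of 28 matrix genes 3 rose, with Plau, the urokinase (1.83), and Itgax, and 3 fell.

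**Figure D4:**
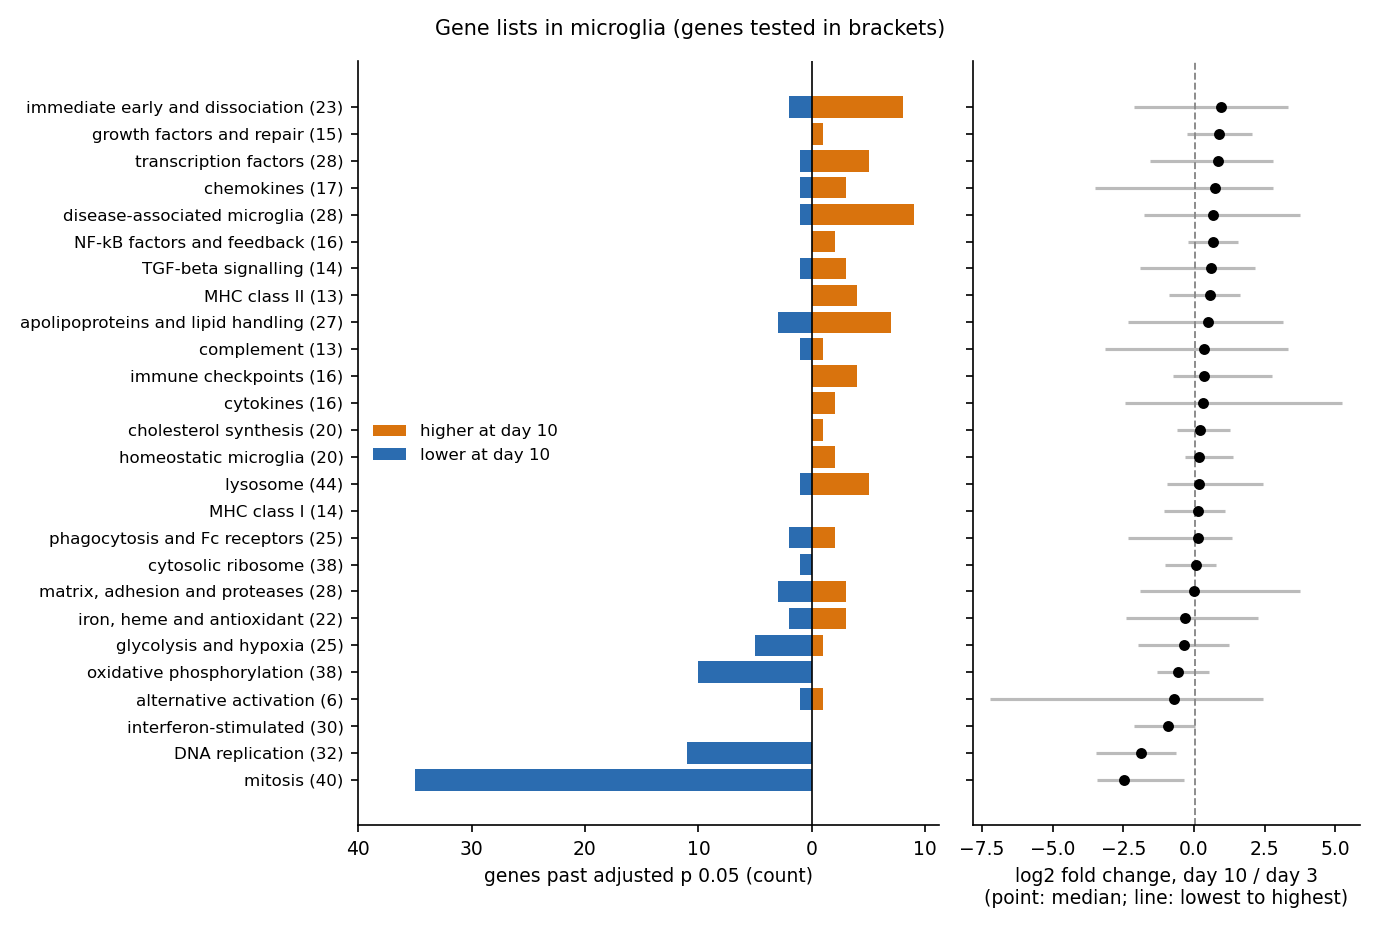
Left, number of genes of each list past an adjusted p of 0.05, higher (right of 0) or lower (left of 0) at D10; right, median log2 fold change (point) with the lowest and highest member (line), and the median of all genes as a dashed line. Mitosis has 35 genes lower of 40, DNA replication 11 of 32, and the disease-associated list 9 higher and 1 lower of 28.

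Markers of other cells were looked at in the same sums, and their part in the results above was not tested. The 9 macrophage markers summed to 1659 to 2149 CPM at D3 and 2246 to 3499 CPM at D10, with Lyz2 most of it (1258, 1164, 1394, 1488 and 1376 CPM at D3 and 1816, 3123 and 2843 CPM at D10; log2 fold change 0.98, SE 0.23, adjusted p 0.019). Most single macrophage markers went the other way. Of the 8 that could be tested, 6 had a negative fold change, with a median of -1.61. Lyz2 was the 1 called higher, and 1 was called lower. The 8 monocyte markers summed to 13.03 to 90.8 CPM at D3 and 17.2 to 27.8 CPM at D10, with Ly6c2 at 0 in 4 of the 5 D3 libraries. The 4 monocyte markers that could be tested all had a negative fold change, with a median of -1.83, as the S100 genes and Ccl7 had. None was called by edgeR (2 had an unadjusted p under 0.05, and DESeq2 called 1 lower): F13a1 was at -3.20 and Chil3 at -2.70 (adjusted p 0.055 and 0.1). Neutrophil markers summed to 0 to 21.6 and 3.71 to 55.3 CPM, border macrophage markers to 137 to 480 and 166 to 323 CPM, and T, NK and B cell markers to at most 3.71 CPM. The 9 dendritic markers summed to 89.0 to 167 and 225 to 305 CPM. Nearly all of this was Siglech (89.0 to 164 and 224 to 302 CPM), which is also among the microglia markers used above.

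Markers of non-immune cells were also summed. Astrocyte markers summed to 17.4 to 111 CPM at D3 and 90.1 to 124 CPM at D10, and 1 of 8 tested was called: Slc1a3, a glutamate transporter that control microglia also showed at 79.8 and 100.3 CPM (log2 fold change 2.29, SE 0.43, adjusted p 0.0061). Oligodendrocyte markers summed to 81.7 to 313 and 157 to 243 CPM with none of 9 called, neuron markers to 2.17 to 51.5 and 14.7 to 22.7 CPM, and red cell markers to 0 to 71.5 and 10.7 to 68.6 CPM. Of the 2 endothelial and mural markers that could be tested, Flt1 was called higher (log2 fold change 2.51, SE 0.45, adjusted p 0.0042) and Pecam1 was not called, at -1.15 (adjusted p 0.17), from summed levels of 6.99 to 16.3 and 11.1 to 23.1 CPM, and Cldn5, the defining endothelial gene, had a single count over the 8 libraries.

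Whether the change from D3 to D10 differed between the sorts was tested as an interaction. No gene passed in edgeR (442 of 10801 had an unadjusted p under 0.05; other scaling factors also gave 0), with 1 resident library at D10. Without D3_mixed 3 there were 188, and without the expression filter 36. For Cst7 the change was 2.00 in the mixed and 3.46 in the resident libraries (difference -1.46, SE 0.63, adjusted p 1), and for Cdkn3 -3.43 in the mixed and -2.52 in the resident libraries (difference -0.90, SE 0.57, adjusted p 1). Lag3 moved by 2.46 in the mixed and 2.87 in the resident libraries (difference -0.41, SE 0.62, adjusted p 1). These lead genes had the same sign in both sorts, and none of the differences passed.

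**Figure D5:**
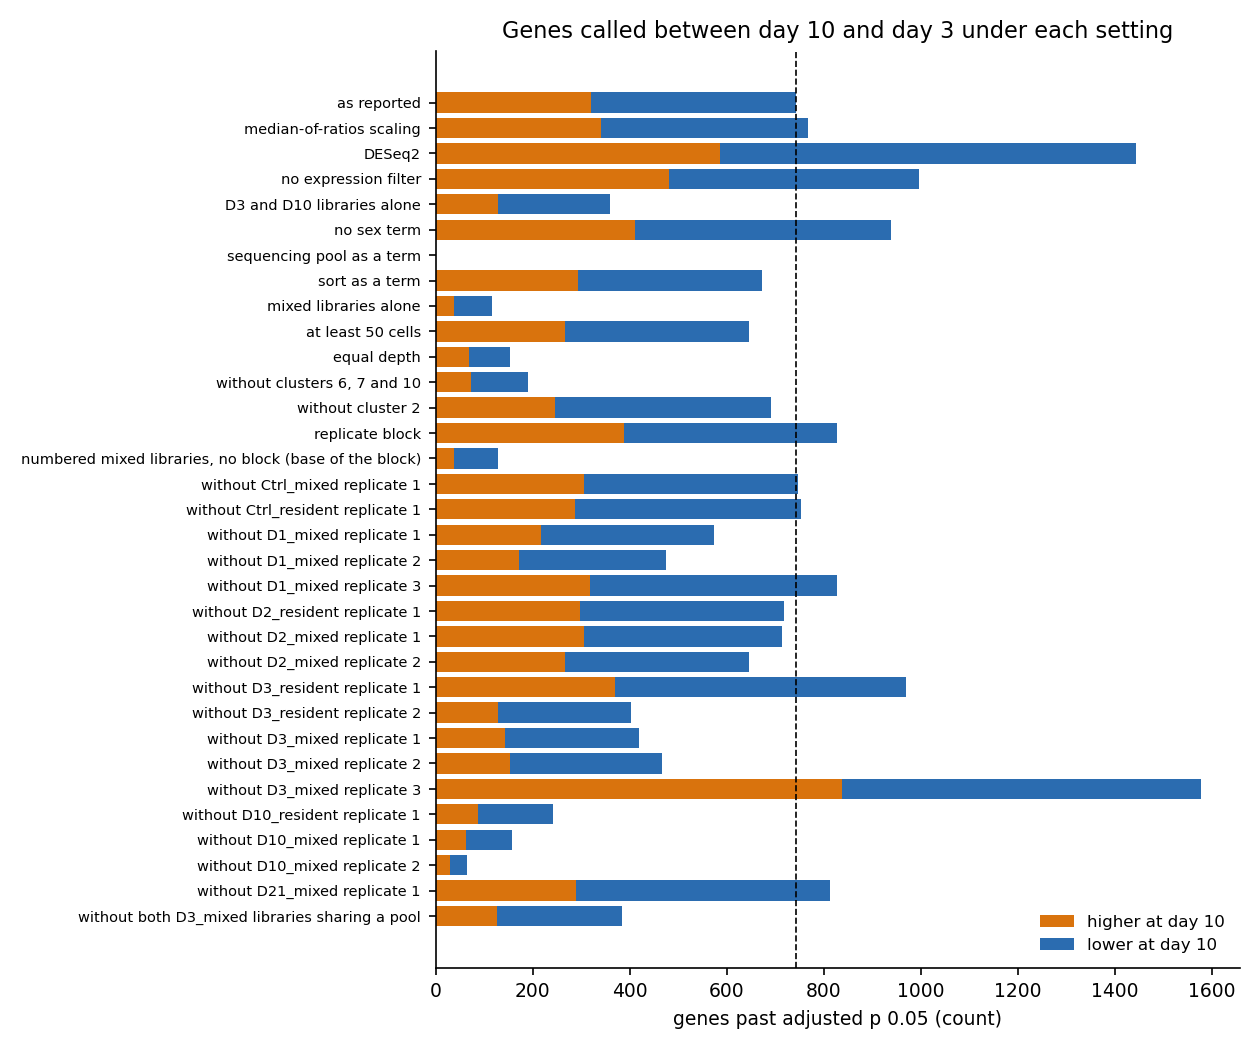
Number of genes past an adjusted p of 0.05, higher and lower at D10, as reported (dashed line, 743) and under each of the 32 alternative settings. The count is 0 with the sequencing pool as a term, 64 without D10_mixed 2 and 1578 without D3_mixed 3.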

How the data were processed

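For 25 libraries the authors deposited UMI counts, unnormalized, by gene and cell, with a table with 1 line per cell giving codes for pool, cluster, cell type, sex and time (unit other) and a percent of mitochondrial counts deposited with them. Cell Ranger 3.1.0 and GRCm38/mm10 are named in the submitters' processing notes; the cell filter, the annotation and the use of strand in counting are not given in the sources used here. Deposited totals equalled the summed counts in all 30958 cells. Doublets and free RNA were not removed.

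Counts of cell type 1 were summed per library. Sums of at least 20 cells from resident and mixed libraries (17, all time points) entered edgeR 4.0.16 (R 4.3.3) with TMM, filterByExpr, time and sex as terms, the quasi-likelihood test of D10 minus D3 and Benjamini-Hochberg adjustment over 10801 genes; the SE is the fold change divided by the root of the F statistic. DESeq2 1.42.0 was an alternative. In simulated data with these means and library sizes, 97 of 100 genes changed 4-fold and 45 of 100 changed 2-fold were recovered, with 5 false calls. The changed genes were drawn from those with a mean of at least 50 CPM, and no pool effect was simulated. Recovery of genes at lower levels was not tested.

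Comparison, gene lists and alternatives were chosen with earlier results of these data known. Named were the 12 called genes with separate ranges and at least 50 CPM that moved most each way, up to 4 called members per list (2 abundant ones where none passed), 20 genes regardless of outcome, and some further members. The 4 promoter genes were chosen after their values were seen, and so were Cenpe, Ckap2l, Knl1, Cks2, Vim, Plin2, Hsp90aa1 and other members beyond 4 per list. Some genes that this rule names are not reported here. Libraries "infiltrating" and 1 with conflicting labels (8 microglia) were left out. Of 22439 gene symbols 22226 match GENCODE M21, and 31 of 115 genes with a printed fold change overlap another annotated gene.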

Additional observations from a re-analysis of the deposited data

Results flagged for a closer look

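In these results 1 of the 5 D3 libraries lay far from the others, judged by the gap to its neighbour over the whole range (above 0.71, the 95% value for 5). Chance gives about 1 such case in 20, and 117 groups of values were examined.

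D3_mixed 3 was the highest for S100a6 (132 CPM, next 71.7), Gpnmb (295 CPM, next 104), Relb (25.4 CPM, next 16.6) and Jun (128 CPM, next 55.1). S100a6, called lower at D10, is lower there than in every D3 library with or without that value. D3_resident 2 was the highest for Top2a (417 CPM, next 157) and the lowest for Csf1 (44.9 CPM, next 73.5). D3_resident 1 was the highest for Slc11a1 (104 CPM, next 76.0), with D10 libraries at 228 to 248 CPM, and for the median UMI count per microglial cell (3421, next 2049).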

How the results depend on the processing

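The 743 genes called between D10 and D3 in microglia became 1444 with DESeq2, 360 with the D3 and D10 libraries alone, 117 with mixed libraries alone, 153 at equal depth (4408 genes tested), 190 without clusters 6, 7 and 10, 385 without D3_mixed 1 and 2 and 0 with the sequencing pool as a term. Leaving out each library in turn gave 64 (without D10_mixed 2) to 1578 (without D3_mixed 3). Fewer libraries, cells or UMIs entered all of these but DESeq2 and the pool term; for the others the cause was not tested. Other scaling gave 768, no filter 996, no sex term 939, a sort term 672, sums of at least 50 cells 645 and no cluster 2 692. Same-number correlations of the deviations between libraries ran from -0.19 to 0.11, and those of different numbers from -0.20 to 0.20. The deviations are from means of few libraries, so these correlations cannot settle whether replicate numbers pair the libraries. With the replicate block over the numbered mixed libraries of D1, D3 and D10 827 genes were called, and 129 in the same libraries without it. The setting without D3_mixed 1 and 2 and that last one were chosen after seeing the data.

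Sort by time interaction gave 0 genes, 36 with no filter and 0 to 188 on leaving out libraries (188 without D3_mixed 3); leaving out D10_resident 1 allows no such fit. The UMI and mitochondrial comparisons kept their sign and stayed above 0.05 throughout, with differences of 540.2 to 1001 UMIs and -0.784 to -0.388 percentage points on leaving out libraries.

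Log2 fold changes that changed sign with the pool term were Btg2 -0.98, C1qa -0.44, C3 -1.26, Cacna1d -0.51, Ccl2 0.083, Ccne1 1.49, Cd74 -0.50, Cst3 -0.55, Ctss -0.11, Cx3cr1 -1.53, Fabp5 -0.086, Fos -1.44, H2-D1 -0.34, H2-Oa -0.69, H2-Ob -0.56, Hsp90aa1 0.040, Ifit3 0.62, Igf1 -1.08, Il10ra -1.37, Itgax -0.27, Jun -1.73, Lyz2 -0.17, Man2b1 -0.49, Mki67 0.34, Nfe2l2 -0.67, Npc2 -0.031, P2ry12 -1.24, Pclaf 0.59, Relb -0.79, Rps19 0.20, Runx1 -0.021, Sall1 -0.19, Sdhc 0.41, Slc1a3 -0.58, Smad7 -0.95, Tgfbr1 -0.41, Tk1 0.069, Tnf -1.83, Top2a 0.53, Trem2 -0.32, Tyrobp -0.047, Uhrf1 1.69, Vsir -0.43. Among genes that were not called, leaving out single libraries moved the fold change across 0, with -0.054 to 0.46 for B2m, -1.50 to 1.67 for Cx3cr1, -0.42 to 0.65 for Gpnmb, -1.48 to 0.23 for Ifit3 and -0.16 to 0.35 for P2ry12. Other settings with the opposite sign gave Cx3cr1 -0.36 and Gpnmb 0.064 with D3 and D10 libraries alone, Cx3cr1 -0.33 and Fabp5 -0.12 without D3_mixed 1 and 2, Gpnmb 0.027 with DESeq2, Gpnmb 0.00525 with sort as a term, Gpnmb 0.51 with equal depth, Gpnmb 0.13, Ifit3 1.83 and P2ry12 -0.37 with replicate block, Ifit3 0.96 and P2ry12 -0.22 with mixed libraries alone, Ifit3 0.97 and P2ry12 -0.19 with numbered mixed libraries without the block, P2ry12 -0.071 without clusters 6, 7 and 10 and P2ry12 -0.00901 without cluster 2.

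Depth limits the low genes: at D3 the shallowest sum held 485160 UMIs, so 1 count there is 2.17 CPM.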

Other observations

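Growth factors and repair genes gave 1 call in 15 tested, Csf1 (passing under 7 of 32 settings), around a median of 0.88, and 13 of the 15 had a positive fold change. Of 22 iron and antioxidant genes the ferritin heavy chain Fth1 had 11859 ± 3123 CPM (SD, n = 5) at D3 and 11120 ± 426 CPM (SD, n = 3) at D10 and was not called, while the light chain Ftl1 fell. The infiltrating libraries also held cells of cell type 1, from 3 to 41 per library, and these were not used.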
